A study of Mus musculus with 7 samples.

Results

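The genes described here encode the proteins of the cytosolic ribosome. They were chosen by symbol: names that begin with Rps or Rpl followed by a number and at most the letter a, x or l with a further number, together with Rplp0, Rplp1, Rplp2 and Rpsa, and without the rows marked -ps as pseudogenes. The rule found 81 genes among 16156 in the count table. By the GENCODE annotation, 76 of them are protein-coding, 31 for the small and 45 for the large subunit, and 5 are pseudogenes that carry a protein-like symbol (Rps3a2, Rps3a3, Rps4l, Rpl32l and Rpl6l). Further ribosomal protein genes, among them Rpl23, Rpl27, Rpl34 and Rpl37, are listed by identifier only, so the rule does not take them, and these 4 are described separately.

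RNA sequencing was done on OT-I CD8 T cells, which carry a transgenic T cell receptor for an ovalbumin peptide. By the sources used here, the 3 KO libraries came from OT-I cells that lack ACLY, the cytosolic enzyme that makes acetyl-CoA from citrate. The 4 WT libraries came from OT-I cells with the gene intact. Cells of both genotypes bore a congenic mark and were moved into C57Bl/6 hosts 1 day before the mice were infected with Listeria monocytogenes expressing ovalbumin, and were recovered on day 6 of the infection. The strain is given as C57Bl/6 for every library, and the sources used here do not say how the gene was removed, how old the animals were or whether libraries came from separate mice, so p-values measure only the spread between these libraries.

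Each ribosome needs a copy of nearly every one of these proteins, and their mRNAs are among the most abundant in dividing cells. Most of the mRNAs begin with a terminal oligopyrimidine (TOP) tract, a run of C and T at the capped end through which mTORC1 signalling controls their translation. T cells enlarge their ribosome pool after activation, and the loss of single ribosomal proteins such as Rpl22 is known to disturb T cell development in mice.

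Start-site sequences are shown here because the C/T run is the feature these genes are known for, and the 9 genes are ones whose values are described below. Each is a window of 25 bases on either side of the annotated start, read 5′ to 3′ from RefSeq promoters of the mouse build GRCm38.p6, with the longest C/T run in capitals.
Rpl38, chr11:114668555-114668604, plus strand: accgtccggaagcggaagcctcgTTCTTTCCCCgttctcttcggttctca
Rps27, chr3:90213624-90213673, minus strand: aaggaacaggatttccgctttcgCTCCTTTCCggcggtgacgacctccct
Rps27l, chr9:66946061-66946110, plus strand: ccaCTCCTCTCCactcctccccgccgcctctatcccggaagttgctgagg
Rpl22l1, chr3:28805483-28805532, plus strand: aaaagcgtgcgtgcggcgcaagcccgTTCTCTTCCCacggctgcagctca
Rpl11, chr4:136053369-136053418, minus strand: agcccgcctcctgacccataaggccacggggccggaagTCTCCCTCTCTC
Rpl41, chr10:128549144-128549193, minus strand: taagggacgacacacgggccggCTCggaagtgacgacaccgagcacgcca
Rps9, chr7:3704016-3704065, plus strand: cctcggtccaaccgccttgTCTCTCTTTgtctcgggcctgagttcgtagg
Rpl4, chr9:64173362-64173411, plus strand: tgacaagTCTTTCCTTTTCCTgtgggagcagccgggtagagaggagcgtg
Rplp2, chr7:141447626-141447675, plus strand: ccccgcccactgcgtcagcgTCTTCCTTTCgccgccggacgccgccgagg
The run was 14 bases long in Rpl4, 10 bases in Rpl38, Rpl22l1 and Rplp2, and 9 bases in Rps27, Rps27l and Rps9, while Rpl41 had no run over 3 bases in this window. In Rpl4 and Rps27l the whole run lay before the annotated start. It spanned the start in Rpl38, Rps27, Rps9 and Rplp2, and lay after it in Rpl22l1 and Rpl11. A run before the start is not part of the annotated transcript and need not be a TOP tract. A promoter was matched for 57 of the 76 coding members. A C/T run of at least 8 bases within 25 bases of the start was present in 30 of them (52.6%), against 1756 of 9591 other protein-coding genes (18.3%). Runs on either side of the start were counted, so these are not shares of genes with a TOP tract. Searched on both strands over 300 bases, the letters CCGGAAG, an ETS-type motif, occurred in 40.4% of the members' promoters and 19.1% of the other genes' promoters. The YY1-type letters AAGATGGC occurred in 8.77% and 4.89%, and TATAAA in 10.5% and 7.19%. The last 3 letters of CCGGAAG are the first 3 of AAGATGGC, so a match of the one can overlap a match of the other. A match describes the sequence and is not evidence of a bound factor.

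Total gene counts were 37473484 to 39692359 in the KO libraries and 45288353 to 75586011 in the WT libraries. Acly itself had 262, 62.0 and 209 CPM (counts scaled to a common library size in parts per 1e+06) in KO libraries 1 to 3, against 393, 339, 414 and 276 CPM in WT libraries 1 to 4. All 7 CD8 T cell markers were detected in every library, and all 7 had a lower fitted mean in KO, with a median log2 difference of -0.46. Their summed level was 2349, 5704 and 5624 CPM in KO 1 to 3 and 5324 to 7108 CPM in WT, and that of 10 effector genes was 2801 to 6941 CPM in KO and 6365 to 12061 CPM in WT. For 10 naive T cell genes the sums were 4363, 9425 and 7558 CPM in KO 1 to 3 and 4130 to 6155 CPM in WT, 9 of the 10 having a higher fitted mean in KO. The KO libraries also held genes of other cells. The summed level of 12 B cell markers was 663 to 11043 CPM in KO and 246 to 683 CPM in WT, and all 12 had a higher fitted mean in KO. For 12 myeloid markers the sums were 93.5 to 1609 CPM in KO and 38.7 to 55.6 CPM in WT, 11 of the 12 being higher in KO. For 7 erythroid markers they were 239 to 46403 CPM in KO and 1.79 to 468 CPM in WT, all 7 being higher in KO. Among the defining markers, Ms4a1 was at 0 in WT 1 and WT 4, Pax5 at 0 in WT 2, WT 3 and WT 4, and S100a8 at 0 in WT 1, WT 3 and WT 4. Of the T cell receptor beta variable gene counts, the OT-I receptor's own segments took 46.7%, 23.2% and 61.8% in KO 1 to 3 and 99.0%, 99.2%, 99.0% and 84.5% in WT 1 to 4. The summed level of 20 cell cycle genes was 5148 CPM in WT 4 and 466 to 1304 CPM in the other 6 libraries. The part of these differences in the results below was not tested except where libraries are left out, and in bulk RNA fewer cells of a type and less RNA per cell cannot be told apart.

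Ribosomal protein mRNA as a whole took a similar part of all counts in both genotypes. The members held 1.55%, 2.23% and 1.72% of all counts in KO 1 to 3, and 1.79%, 2.08%, 1.59% and 2.04% in WT 1 to 4. The highest share was in KO 2 and the lowest in KO 1, with all 4 WT libraries between them. The mean was 1.84% ± 0.355 in KO and 1.88% ± 0.229 in WT (SD, n = 3 and 4). The difference of -0.040 percentage points was smaller than either SD, and it turned to 0.10 without KO 1 and -0.24 without KO 2. In the scaled CPM used for single genes, the members summed to 17611 ± 2658 in KO and 19256 ± 1993 in WT. That KO over WT ratio of 0.915 was lower than the ratio of 0.979 for the share of counts. The 2 subunits stayed in proportion. Large-subunit over small-subunit CPM was 1.21, 1.28 and 1.30 in KO 1 to 3, and 1.24, 1.17, 1.27 and 1.24 in WT 1 to 4, so the genotypes overlapped.

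**Figure D1:**
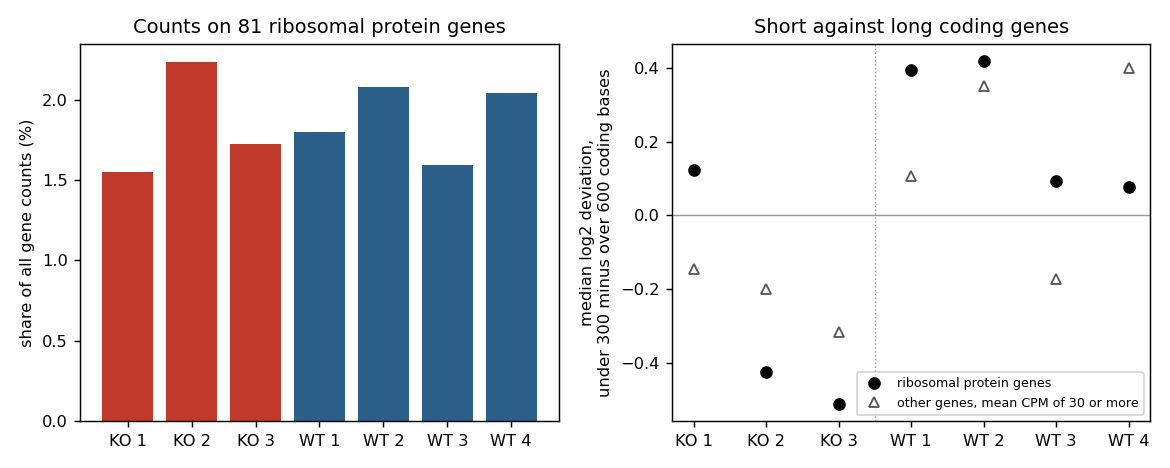
Left, the share of all gene counts (%) on the 81 ribosomal protein genes in each library, KO in red and WT in blue; KO 1 (1.55%) and KO 2 (2.23%) span all WT libraries. Right, for each library the median log2 deviation (log2 CPM minus the mean of the 7 libraries) of genes under 300 coding bases minus that of genes over 600, for ribosomal protein genes (filled circles) and other protein-coding genes with a mean CPM of 30 or more (open triangles).

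Gene by gene, more members lay below WT than above it, by small amounts. The fitted log2 difference, KO minus WT, was below 0 for 59 of 81 members and above 0 for 22, where 50% of all genes lay on each side. Its median was -0.19 over the members and near 0 over all 16156 genes tested. That median stayed below 0 under each alternative tried, from -0.32 without KO 2 to -0.080 without both KO 1 and WT 4. The median was -0.21 for the 31 small-subunit genes and -0.19 for the 45 large-subunit genes. It was 0.22 for the 5 annotated pseudogenes and -0.01 for the 126 ribosomal protein rows marked -ps.

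No member passed the main test, edgeR's quasi-likelihood test with Benjamini-Hochberg adjustment over all genes at 0.05, and neither did any other gene (0% called higher and 0% called lower). At an unadjusted p under 0.05 the test marked 1 member as higher and 11 as lower, or 1.23% and 13.6% of members, against a background of 11% higher and 7.89% lower over all genes. DESeq2 called 1 member higher (Rps4l) and 4 lower (Rps27l, Rpl22l1, Rpl29 and Rpl23a), with 6.39% of all genes called higher and 3.22% lower. Limma voom with sample quality weights called Rps4l higher and Rpl29 lower, with backgrounds of 5.32% and 1.68%. EdgeR's bias-adjusted fit called Rps4l higher and no member lower, with backgrounds of 3.07% and 0.477%. The KO and WT libraries did not overlap for 1 member with KO above (background 9.46%) and for 5 members with KO below (background 9.03%), so neither share exceeded its background.

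**Figure D2:**
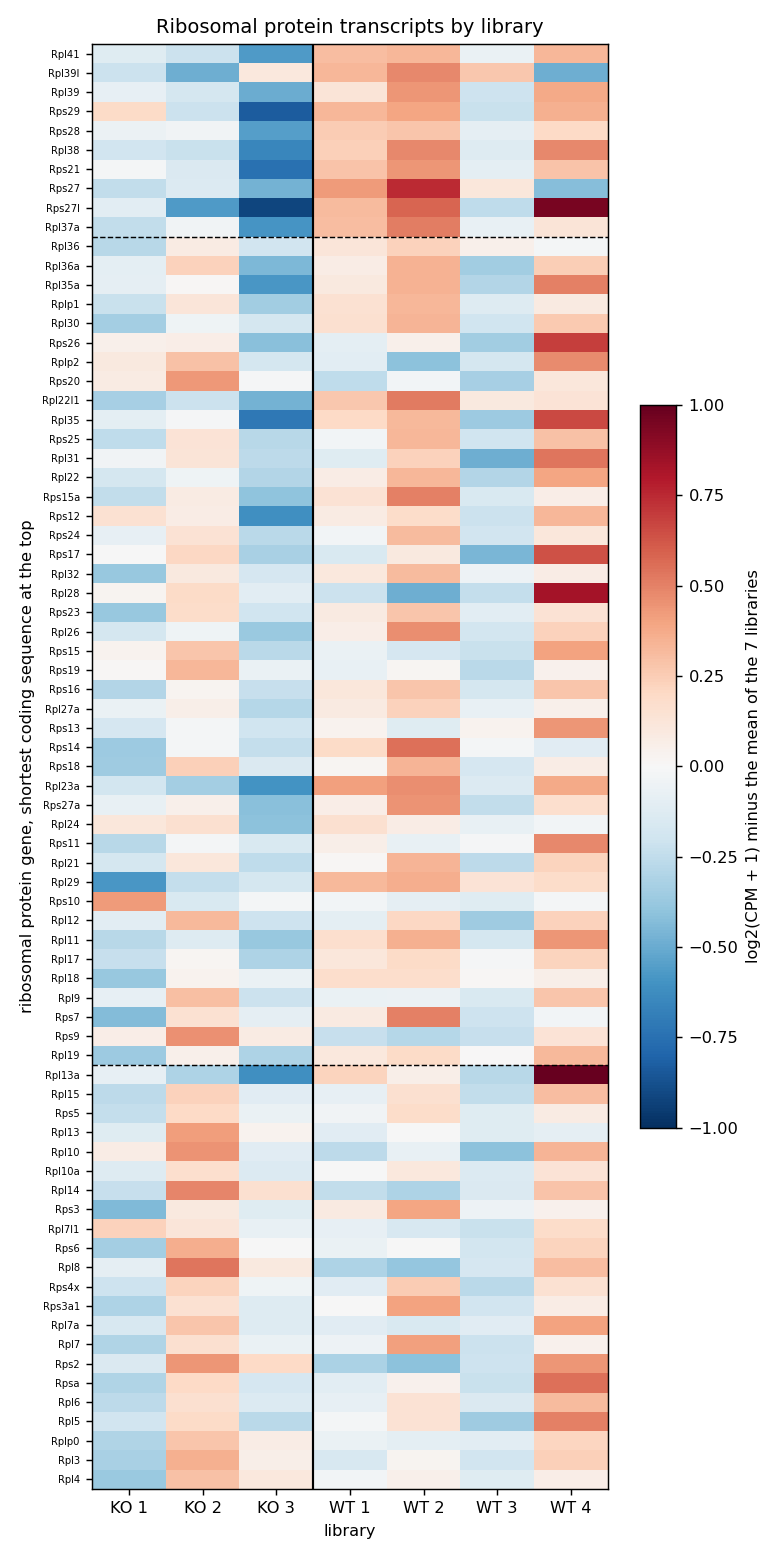
Each row is 1 of 75 of the 76 protein-coding ribosomal protein genes, ordered from the shortest coding sequence at the top to the longest at the bottom, and each column 1 library. Colour is log2(CPM + 1) minus the mean of the 7 libraries, red above and blue below, and dashed lines mark 300 and 600 coding bases. KO 3 is lowest in many short genes, and WT 4 departs from WT 1 to 3 in single genes such as Rps27, Rps27l, Rpl28 and Rpl13a.

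The libraries of 1 genotype were not alike. Of the 76 protein-coding members, 31 had their lowest CPM in KO 3 and 26 in KO 1, against 11 in WT 3 and 6 in WT 2. The highest CPM fell in WT 2 for 33 of these members, in WT 4 for 25 and in KO 2 for 15. KO 2 thus resembled WT 2 and WT 4 in overall level, and WT 3 resembled KO 1 and KO 3. The median deviation of the 76 protein-coding members from the mean of the 7 libraries was -0.18, 0.12 and -0.20 (log2) in KO 1 to 3, and 0.06, 0.23, -0.18 and 0.23 in WT 1 to 4.

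Among the small-subunit proteins, Rps27 and its paralog Rps27l were the members furthest below WT. Rps27, a zinc-finger protein of the small subunit, had 411, 444 and 351 CPM in KO 1 to 3, against 655, 818, 526 and 362 CPM in WT 1 to 4. WT 4 lay within the KO range and the other 3 WT libraries lay above it. The log2 difference was -0.55 ± 0.27 (SE), with an adjusted p of 0.329. Rps27l, a target of p53 in human and mouse cells, had 77.9, 56.1 and 43.7 CPM in KO and 104, 126, 70.03 and 162 CPM in WT. KO 1 lay above WT 3, so the genotypes overlapped by that pair. Its log2 difference was -0.97 ± 0.31, with an edgeR adjusted p of 0.165 and a DESeq2 adjusted p of 0.0444, within a range of 0.0444 to 0.346 over 17 alternatives.

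Of the 31 coding small-subunit genes 7 had a fitted mean above WT, and the 3 furthest above are described here. Rps9, which binds early in assembly and lines the mRNA entry channel, had 510, 667 and 515 CPM in KO and 413, 399, 414 and 533 CPM in WT. WT 4 fell within the KO range, and the other 3 WT libraries lay below it. The log2 difference of 0.36 ± 0.17 had an adjusted p of 0.309. Rps20, a protein of the small-subunit head, had 249, 318 and 233 CPM in KO and 197, 231, 187 and 254 CPM in WT, a log2 difference of 0.30 ± 0.17 (adjusted p = 0.395). Rps2, at the mRNA entry site, had 310, 465 and 392.2 CPM in KO and 275, 257, 296 and 465 CPM in WT. KO 2 and WT 4 were level for Rps2 and the log2 difference was 0.27 ± 0.25 (adjusted p = 0.619). Without both KO 1 and WT 4, it became 0.66 with an adjusted p of 0.0345, within 0.0345 to 0.884 over the 17 alternatives. Rps2 has exons that overlap the noncoding gene Snhg9 in position, with strand not considered, so its counts could include reads of that gene.

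Rps3 and Rps14 stood among the most abundant members. Rps3, a protein of the mRNA entry channel that also acts in DNA repair, had 597, 865 and 743 CPM in KO and 861, 1064, 780 and 832 CPM in WT, a log2 difference of -0.27 ± 0.19. Rps14, a protein of the small-subunit platform whose human copy is lost in 5q- syndrome, had 524, 665 and 570 CPM in KO and 769, 987, 664 and 623 CPM in WT, a log2 difference of -0.38 ± 0.20. The genotypes overlapped for both genes, with adjusted p of 0.497 for Rps3 and 0.365 for Rps14. Rpsa, the laminin receptor precursor that sits on the small subunit, had 246, 348 and 270 CPM in KO and 281, 313, 260 and 444 CPM in WT. Its difference of -0.17 ± 0.22 (adjusted p = 0.733) changed sign without WT 4.

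In the large subunit, 5 of 45 coding genes (11.1%) had every KO library below every WT library, against 9.03% of all genes. Rpl29, a small basic protein at the subunit surface that is not essential in mice, had 83.9, 107 and 112 CPM in KO, against 158, 163, 139 and 144 CPM in WT. The gap between KO 3 and WT 3 exceeded the SD of either group, 14.8 CPM in KO and 11.4 CPM in WT. The log2 difference of -0.58 ± 0.14 had an edgeR adjusted p of 0.0959, a DESeq2 adjusted p of 0.0123 and a limma voom adjusted p of 0.0466, within 0.0123 to 0.287 over 17 alternatives. Rpl29 lies at chr9:106429454-106431568 on the plus strand, and 78.5% of the 50-base stretches of its transcript also occur in another annotated gene.

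Rpl38, which in mouse embryos is needed for translation of Hox mRNAs, had 122.9, 119.8 and 88.8 CPM in KO, against 165, 197, 128 and 196 CPM in WT. WT 3 lay just above KO 1 and the log2 difference was -0.63 ± 0.20 (adjusted p = 0.153). Rpl23a, at the tunnel exit where nascent chains leave, had 18.3, 16.3 and 13.4 CPM in KO and 28.1, 29.2, 19.0 and 27.5 CPM in WT. WT 3 again lay next to the KO libraries. The log2 difference was -0.70 ± 0.23, with an edgeR adjusted p of 0.164 and a DESeq2 adjusted p of 0.0438, within 0.0438 to 0.392 over 17 alternatives. Exons of Rpl23a overlap those of Tlcd1.

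Rpl41 encodes the smallest ribosomal protein, a single helix at the interface of the subunits. It had 320, 299 and 235 CPM in KO, against 431, 439, 332 and 439 CPM in WT. WT 3 was the nearest WT library to KO here too, and the log2 difference was -0.53 ± 0.17 (adjusted p = 0.159). Rpl22l1, the paralog of Rpl22, is the fifth gene without overlap and is described with the paralogs. Rpl11, which with Rpl5 and 5S rRNA binds the p53 regulator Mdm2, had 88.5, 98.5 and 82.4 CPM in KO and 121, 138, 95.3 and 146 CPM in WT. KO 2 exceeded WT 3 by a little, and the log2 difference was -0.48 ± 0.17 (adjusted p = 0.194).

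**Figure D3:**
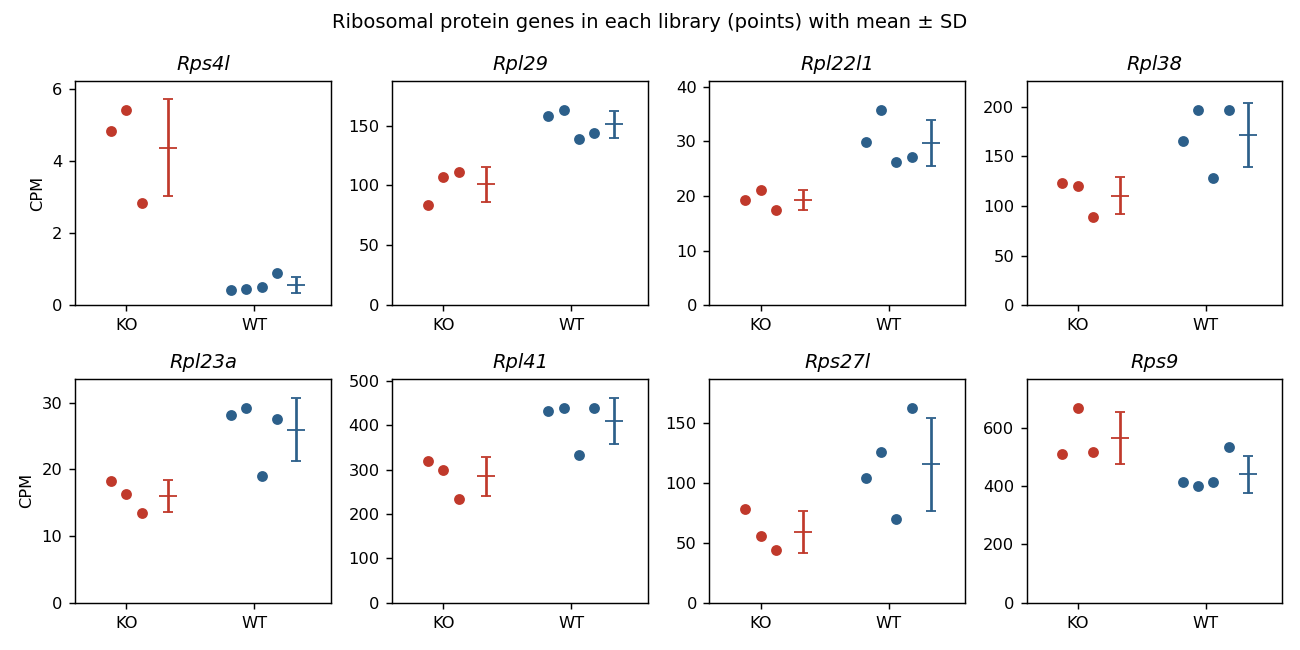
CPM (TMM-scaled, linear axes from 0) of 8 ribosomal protein genes in each KO (red) and WT (blue) library, with the mean ± SD to the right of the points. Rps4l, Rpl29, Rpl22l1, Rpl38, Rpl23a and Rpl41 show no overlap between genotypes, and Rps27l and Rps9 do.

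The most abundant large-subunit members differed little. Rpl4, which reaches into the exit tunnel, had the highest mean CPM of all members, with 1004, 1592 and 1392 CPM in KO and 1269, 1346, 1194 and 1355 CPM in WT. KO 1 was the lowest and KO 2 the highest of the 7 libraries, and the log2 difference was 0.04 ± 0.19 (adjusted p = 0.931). Rpl32 had 474, 657 and 547 CPM in KO and 662, 766, 595 and 647 CPM in WT, a log2 difference of -0.26 ± 0.17 (adjusted p = 0.459), and its exons overlap those of Cand2. Rpl13 had 678, 990 and 759 CPM in KO and 682, 736, 679 and 692 CPM in WT. The log2 difference for Rpl13 was 0.21 ± 0.16 (adjusted p = 0.540), and KO 1 lay just under all WT libraries while KO 2 and KO 3 lay above them.

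Rpl8, next to the peptidyl transferase centre, had 389, 602 and 444 CPM in KO and 334, 317, 369 and 514 CPM in WT, a log2 difference of 0.32 ± 0.23 (adjusted p = 0.504). Only WT 4 among the WT libraries lay within the KO range. Rpl13a, which in human myeloid cells leaves the ribosome to silence inflammatory mRNAs, had 13.8, 11.7 and 9.26 CPM in KO and 17.4, 15.4, 11.96 and 30.4 CPM in WT. The log2 difference of -0.70 ± 0.36 (adjusted p = 0.351) was -0.36 without WT 4, the library with the highest value.

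The stalk proteins, which recruit the translation factors that split GTP, did not move as a group. Rplp0, the base of the stalk, had 553, 827 and 720 CPM in KO and 651, 638, 633 and 791 CPM in WT, a log2 difference of 0.05 ± 0.18. Rplp1 had 276, 350 and 254 CPM in KO and 358, 406, 294 and 343 CPM in WT, a log2 difference of -0.26 ± 0.17. Rplp2, the partner of Rplp1 in the stalk dimer, had 222, 254 and 183 CPM in KO and 192, 155, 183 and 288 CPM in WT, a log2 difference of 0.10 ± 0.23. None of the 3 passed, with adjusted p of 0.919 for Rplp0, 0.463 for Rplp1 and 0.857 for Rplp2, and the genotypes overlapped in all 3.

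The size of the difference went with the length of the coding sequence. All 10 members with under 300 coding bases had a fitted mean below WT, with a median log2 difference of -0.52. Of the 44 members with 300 to 600 coding bases 36 lay below WT, with a median of -0.23, and of the 22 members over 600 bases 12 did, with a median of -0.02. Across the 76 coding members, Spearman's rho of coding length against log2 difference was 0.58, a description in which all points share the same 7 libraries. The same coefficient was 0.44 for transcript length, 0.31 for mean CPM, 0.18 for GC content and 0.067 for the share of repeated sequence.

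Other genes of the same length class had median differences close to those of the members. Among other protein-coding genes with a mean CPM of 30 or more, the median log2 difference was -0.48 for 136 genes under 300 coding bases, -0.25 for 688 genes of 300 to 600 bases and -0.09 for 5381 genes over 600 bases. In the shortest class, 50% of the ribosomal protein genes (5 of 10) and 56.6% of the other genes (77 of 136) had an unadjusted p under 0.05 with KO lower. In the middle class the shares were 13.6% of the members and 26.7% of the other genes. Every KO library lay below every WT library for 20% of the shortest members and 46.3% of the other genes of that class. In the middle class this held for 6.82% of the members and 27.9% of the other genes. Spearman's rho of coding length against the difference was lower in the other genes, 0.16 over 6205 genes with a mean CPM of 30 or more and 0.084 over all 11945. The difference in length dependence between the members and other genes was not tested.

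Library by library, the median deviation of the short members minus that of the long members was 0.12, -0.43 and -0.51 (log2) in KO 1 to 3, and 0.39, 0.42, 0.09 and 0.08 in WT 1 to 4. KO 2 and KO 3 lay below all WT libraries, while KO 1 lay among them. In other genes with a mean CPM of 30 or more the same measure was -0.14, -0.20 and -0.32 in KO 1 to 3, and 0.11, 0.35, -0.17 and 0.40 in WT 1 to 4. There WT 3 stood between KO 1 and KO 2. The difference between short and long members, -0.50 in the fit of all libraries, ran from -0.40 (without KO 3) to -0.71 (without KO 1) when 1 library was left out, and was -0.80 without both KO 1 and WT 4.

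**Figure D4:**
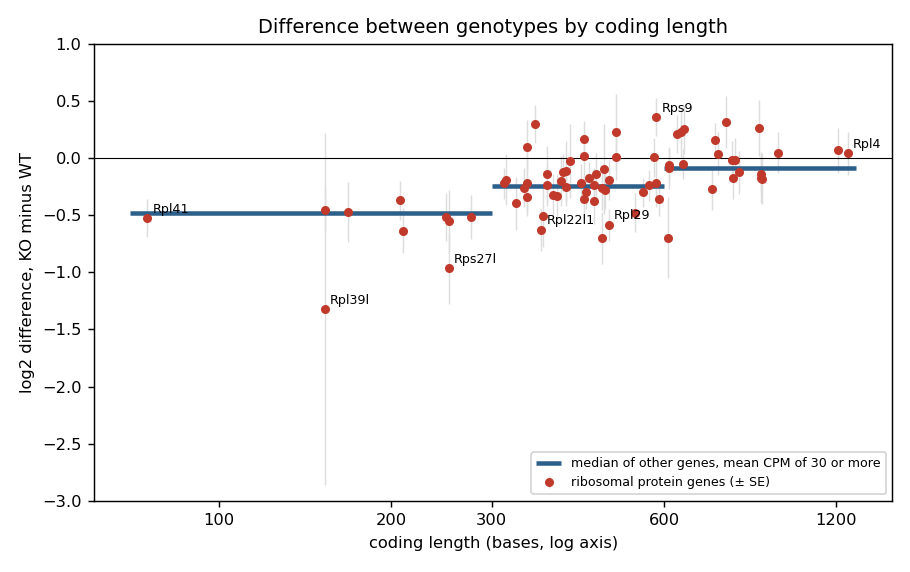
Fitted log2 difference (KO minus WT, ± SE) of 75 of the 76 coding ribosomal protein genes against coding length (log axis), with the medians of other protein-coding genes of the same length class as blue bars (-0.48, -0.25 and -0.09). The 10 shortest members all lie below 0; Rpl39l, with no count in 2 libraries, has the longest error bar.

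Several ribosomal protein genes have a second gene of related sequence, whose product can in some pairs take the place of the first in the ribosome. The ratio of the 2 transcripts within a library does not depend on library scaling. Of 8 such pairs listed, 6 were measured, and the ratios were tested by an exact two-sided permutation test over all 35 ways to choose 3 of 7 libraries, whose smallest p is 0.0286. The next 2 lines show the first 60 coding bases of Rps27 and the aligned part of Rps27l, to show how far apart reads of the 2 can be told. They are from GENCODE transcripts of GRCm38, and capitals mark the bases that differ.
Rps27l: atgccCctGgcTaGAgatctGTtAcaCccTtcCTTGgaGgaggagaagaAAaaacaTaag
Rps27: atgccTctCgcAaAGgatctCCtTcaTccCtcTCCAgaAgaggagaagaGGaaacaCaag
The 2 differ at 18 of these 60 bases and are 76.2% identical over the coding sequence. The count of Rps27l was 19.0%, 12.6% and 12.4% of that of Rps27 in KO 1 to 3, and 15.9%, 15.4%, 13.3% and 44.8% in WT 1 to 4. WT 4 stood apart, and the other 3 WT libraries lay within the KO range, with an exact permutation p of 0.571.

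Rpl22 binds RNA and in mice restrains its own paralog, and Rpl22l1 takes its place in ribosomes when it is lost. Rpl22l1 had 19.4, 21.1 and 17.4 CPM in KO, against 29.8, 35.7, 26.3 and 27.1 CPM in WT, with no overlap. The log2 difference of -0.63 ± 0.18 had an edgeR adjusted p of 0.140 and a DESeq2 adjusted p of 0.0217, within 0.0217 to 0.345 over 17 alternatives. Rpl22 had 91.0, 100.05 and 83.8 CPM in KO and 108, 130, 83.9 and 135 CPM in WT, a log2 difference of -0.32 ± 0.18 (adjusted p = 0.406). As a share of the Rpl22 count, Rpl22l1 stood at 21.3%, 21.1% and 20.8% in KO, and at 27.6%, 27.5%, 31.4% and 20.1% in WT. The 3 KO values lay within 1 percentage point of each other, and WT 4 lay just below them. The exact permutation p was 0.143, or 0.429 with Benjamini-Hochberg adjustment over the 6 pairs.

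Rps4l was the member with the largest difference. It resembles the X-linked Rps4x in sequence, lies at chr6:148354656-148355598 on the plus strand, and is a pseudogene by the GENCODE annotation. Rps4l had 4.84, 5.40 and 2.84 CPM (181, 232 and 111 counts) in KO, against 0.428, 0.449, 0.499 and 0.882 CPM (31, 20, 26 and 52 counts) in WT. Every KO library was more than 3 times every WT library in this gene, and WT 4 was the highest of the WT libraries. The mean was 7.72-fold higher in KO, and the log2 difference was 2.94 ± 0.45. The edgeR adjusted p was 0.0651, just over the threshold, and over 17 alternatives it lay between 2.8e-07 (DESeq2) and 0.233 (without WT 1), 6 of them under 0.05.

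Rps4x did not show this difference, with 159, 215 and 178 CPM in KO and 169, 220, 152 and 204 CPM in WT and a log2 difference of -0.02 ± 0.17 (adjusted p = 0.965), whose sign changed under 11 alternatives. The start of the coding sequence of Rps4x and the matching stretch of Rps4l are shown here because so low a count could be affected by reads of an abundant near copy. Capitals mark the bases that differ.
Rps4l: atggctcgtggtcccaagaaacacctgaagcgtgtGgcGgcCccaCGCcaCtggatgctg
Rps4x: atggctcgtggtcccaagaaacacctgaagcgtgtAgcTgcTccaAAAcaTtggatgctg
The 2 differ at 7 of these 60 bases and are 79.9% identical where they align, and 14.9% of the 50-base stretches of Rps4l occur in another annotated gene. As a share of the Rps4x count, Rps4l stood at 3.05%, 2.51% and 1.59% in KO, and at 0.252%, 0.204%, 0.327% and 0.432% in WT. The exact permutation p was 0.0286, the smallest this design can give, and 0.171 after Benjamini-Hochberg adjustment over the 6 pairs.

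The KO libraries in order of Rps4l, followed by WT 4, were also in order of their OT-I receptor share, lowest first. The OT-I segments took 23.2% of beta variable counts in KO 2, 46.7% in KO 1, 61.8% in KO 3, 84.5% in WT 4 and 99.0% to 99.2% in WT 1 to 3. The libraries in that order had 5.40, 4.84, 2.84 and 0.882 CPM of Rps4l, and WT 1 to 3 had 0.428, 0.449 and 0.499 CPM. Among WT 1 to 3, with shares of 98.96%, 99.18% and 98.98%, Rps4l did not follow that order. The B cell marker sums were 1182, 11043 and 663 CPM in KO 2, KO 1 and KO 3. In the same libraries the myeloid sums were 93.5, 1609 and 931 CPM and the erythroid sums 6475, 46403 and 239 CPM. Rps4l could not be placed by cell type, since the libraries are bulk RNA. The part of other cells of any kind in its difference was not tested.

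The other paralog pairs overlapped between genotypes. Rpl7l1, which in spite of its name acts in large-subunit assembly in human cells, had 139, 129 and 112 CPM in KO and 111, 106, 101 and 134 CPM in WT, a log2 difference of 0.16 ± 0.14 (adjusted p = 0.596). Its parent Rpl7 had 292, 402 and 343 CPM in KO and 346, 478, 310 and 370 CPM in WT, and the exact permutation p of the ratio was 0.371. Rpl39l, known in mice from testis, was near the floor, with 8, 0 and 20 counts in KO and 56, 43, 36 and 0 counts in WT. With 0 counts in KO 2 and in WT 4, which allow up to 3 counts each, its log2 difference of -1.32 ± 1.54 (adjusted p = 0.705) is not a measured change. Rpl39, a tunnel protein, had 60.3, 56.6 and 45.1 CPM in KO and 70.03, 87.2, 55.3 and 83.3 CPM in WT, a log2 difference of -0.45 ± 0.20 (adjusted p = 0.266). The ratio of Rpl36al to Rpl36a was 11.6%, 8.44% and 17.2% in KO and 15.7%, 13.4%, 15.3% and 15.1% in WT (exact permutation p = 0.286).

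The 4 annotated pseudogenes other than Rps4l were close to WT. Rpl32l was the most abundant, with 28.6, 39.6 and 31.9 CPM in KO and 39.2, 44.3, 31.3 and 41.5 CPM in WT. Rps3a2, related to Rps3a1, had 2.67, 4.31 and 4.07 CPM in KO and 2.496, 3.75, 2.82 and 2.90 CPM in WT, a log2 difference of 0.30 ± 0.34 (adjusted p = 0.694). The 5 pseudogenes together held 0.268% to 0.284% of the members' counts in KO and 0.237% to 0.262% in WT. The 126 rows marked -ps came to 1.93% to 1.99% of the members' CPM in KO and 1.71% to 1.95% in WT.

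Per kilobase of transcript, the coding members spread widely in level. The transcript taken for each gene was the shortest one with the full coding sequence. The median over the 76 genes was 228 CPM per transcript kilobase, with an interquartile range of 126 to 434. Rps27 was highest at 1165 ± 136 in KO and 1711 ± 560 in WT, followed by Rpl32 at 1082 ± 179 in KO and 1291 ± 139 in WT (SD, n = 3 and 4). These neighbours do not differ beyond their spread. Rpl41 stood at 652 ± 102 in KO and 938 ± 120 in WT. Per coding kilobase it would be first, at 3796 ± 593 in KO and 5466 ± 697 in WT, since only 75 of its 437 transcript bases are coding. At the low end, chosen after their values were seen, stood Rpl13a at 11.1 in KO and 17.9 in WT, Rps10 at 6.34 in KO and 5.40 in WT, Rpl24 at 2.38 in KO and 2.53 in WT, and Rpl39l at 0.440 in KO and 1.10 in WT, all per transcript kilobase.

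Many members share sequence with other annotated genes. In 49 of the 76 genes more than 50% of the 50-base stretches also occur in another gene. Spearman's rho of that share with the level was -0.19 per transcript kilobase and -0.41 per coding kilobase across the 76 genes, so its size depends on the length used. The share was 92.4% for Rps10, 81.7% for Rpl24, 85.7% for Rpl23a and 57.4% for Rpl13a. It was also 98.6% for Rps27, the highest in level, and 0% for Rpl39l, the lowest. The labels do not say how reads that match several genes were treated, so levels of members with repeated sequence are uncertain. In 15 members exons also overlap those of another measured gene in position, with strand not considered.

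**Figure D5:**
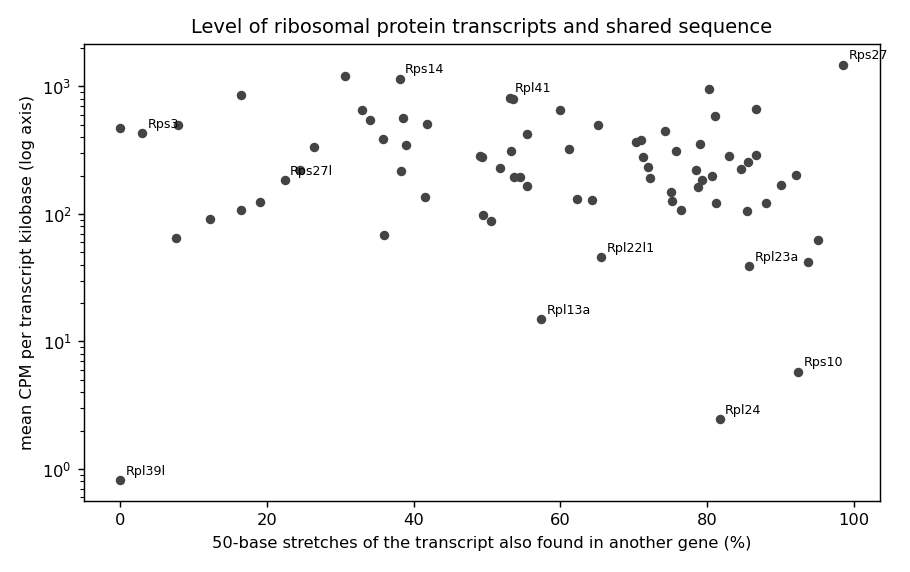
Mean level of 75 of the 76 coding ribosomal protein genes over the 7 libraries, in CPM per transcript kilobase (log axis), against the percentage of 50-base stretches of its transcript found in another annotated gene. Rpl24, Rps10 and Rpl39l lie lowest, and Rps27 is high although 98.6% of its stretches are repeated.

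Not every ribosomal protein gene outside the symbol rule lay on the same side of WT. Rpl37, Rpl34, Rpl27 and Rpl23, listed by identifier only, lay below WT in mean, and none of the 4 passed edgeR's main test. Rpl27 averaged 107 ± 10.6 CPM in KO and 158 ± 12.7 CPM in WT, a log2 difference of -0.56 ± 0.12 with an edgeR adjusted p of 0.0844, a DESeq2 adjusted p of 0.0039, a limma voom adjusted p of 0.0624 and 0.0613 in edgeR's bias-adjusted fit. Rpl34 averaged 133 ± 10.98 CPM in KO and 191 ± 32.5 CPM in WT, a log2 difference of -0.52 ± 0.16 (adjusted p = 0.147). For both of these genes every KO library lay below every WT library.

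Fau, which encodes Rps30 fused to a ubiquitin-like protein, had 145, 134 and 112 CPM in KO and 166, 153, 154 and 176 CPM in WT without overlap, a log2 difference of -0.32 ± 0.13 (adjusted p = 0.245). Rpl36al, the copy of Rpl36a on an autosome, had 5.45, 4.98 and 6.295 CPM in KO and 8.32, 8.62, 6.03 and 9.003 CPM in WT (log2 difference -0.52 ± 0.28, adjusted p = 0.367). Rack1, the signalling scaffold on the small subunit, had 336, 439 and 397 CPM in KO and 352, 396, 338 and 474 CPM in WT, and its log2 difference of 0.0045 ± 0.17 changed sign under 4 alternatives.

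Genes that act with the ribosomal proteins were taken from lists of known members of each process. Other mRNAs with a TOP tract, such as those of elongation factors, lay on both sides of WT: 11 of 19 above and 8 below, with a median log2 difference of 0.02 and 1 gene (Fau, lower) at an unadjusted p under 0.05. Eef1g, a subunit of elongation factor eEF1, had 117, 178 and 145 CPM in KO and 92.4, 82.0, 103 and 139 CPM in WT, a log2 difference of 0.50 ± 0.22 (adjusted p = 0.278). None of the 19 passed the adjusted test. The list's median lay near that of all genes, while that of the 81 members was -0.19. For the 22 members over 600 coding bases the median was -0.02. The lists were not matched for coding length, and the difference between them was not tested.

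Of 17 genes of mTORC1 and its TOP mRNA regulators 13 lay above WT and 4 below, and none passed. Over all genes, 50% lay on each side. At an unadjusted p under 0.05, 2 (11.8%) were higher and 2 (11.8%) lower, against 11% and 7.89% of all genes. The 2 higher genes were Akt1s1 and Deptor, named after their values were seen. Akt1s1 had a log2 difference of 0.57 ± 0.19 (edgeR adjusted p = 0.164). For Deptor it was 2.04 ± 0.71 (edgeR adjusted p = 0.189). The 2 lower genes were Rptor and Rheb. Rptor, the subunit that brings substrates to mTORC1, had 56.8, 40.5 and 51.8 CPM in KO, against 98.0, 88.2, 95.9 and 67.0 CPM in WT. No KO library reached the lowest WT library, WT 4. Its log2 difference of -0.81 ± 0.19 had an edgeR adjusted p of 0.0891 and a DESeq2 adjusted p of 0.0039, within 0.0039 to 0.269 over 17 alternatives, 3 of them under 0.05. Rheb, the GTPase that activates mTORC1, had 106, 108 and 124 CPM in KO and 144, 165, 141 and 146 CPM in WT, a log2 difference of -0.40 ± 0.12 (adjusted p = 0.140). Mtor itself had a log2 difference of 0.25 ± 0.16 (adjusted p = 0.452).

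Most ribosome assembly factors lay above WT and most ribosomal protein genes below it, in lists not matched for coding length. Of 35 biogenesis genes 27 lay above WT and 8 below, with a median log2 difference of 0.20. At an unadjusted p under 0.05, 5 (14.3%) were higher and 0 lower, against 11% and 7.89% of all genes. Every KO library lay above every WT library for 6 (17.1%, against 9.46% of all genes) and below for 1 (Polr1e, an RNA polymerase I subunit, named after its values were seen; 2.86%, against 9.03%). Gnl3 (nucleostemin), a nucleolar GTPase, had 71.3, 85.7 and 57.6 CPM in KO, against 45.1, 46.4, 43.5 and 45.9 CPM in WT. Its log2 difference of 0.66 ± 0.15 had an edgeR adjusted p of 0.0902 and a DESeq2 adjusted p of 0.0033, within 0.0033 to 0.274 over 17 alternatives. Rrs1, which in yeast recruits the 5S particle, had 59.8, 79.0 and 69.85 CPM in KO and 47.0, 47.9, 51.1 and 54.0 CPM in WT, a log2 difference of 0.48 ± 0.14 (adjusted p = 0.132).

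Dedicated chaperones carry new ribosomal proteins to the nucleus, and all 6 measured of 7 listed lay above WT, where 50% of all genes did, with a median log2 difference of 0.32. At an unadjusted p under 0.05, 3 of the 6 were higher, against 11% of all genes. Tsr2, known from yeast and human cells as the chaperone of Rps26, had 18.3, 38.7 and 32.96 CPM in KO and 15.8, 16.9, 16.2 and 14.7 CPM in WT. Every KO library lay above every WT library, with KO 1 nearest to them, and the log2 difference was 0.91 ± 0.27 (adjusted p = 0.135). Grwd1, known from human cells as the chaperone of Rpl3, had 40.2, 66.9 and 43.2 CPM in KO and 26.3, 25.3, 30.3 and 36.6 CPM in WT, a log2 difference of 0.76 ± 0.23 (adjusted p = 0.147). None of these passed the edgeR test after adjustment, and DESeq2 called Tsr2 (adjusted p = 0.0186, within 0.0186 to 0.330 over 17 alternatives) and Grwd1 (adjusted p = 0.0336, within 0.0301 to 0.357). The KO libraries also held more RNA of other cells, as given above, and its part in these values was not tested.

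Free ribosomal proteins are known to raise p53, and p53 with its targets lay on both sides of WT. Of 13 genes measured of 14 listed, 6 lay above and 7 below, with a median log2 difference of -0.10, and none passed. The 2 with the smallest p were Rps27l, given above, and Ccng1, a cyclin-like target of p53. Ccng1 had 149, 117 and 122 CPM in KO, against 206, 237, 181 and 153 CPM in WT. The highest KO library and the lowest WT library differed by less than 4 CPM, and the log2 difference was -0.59 ± 0.18 (adjusted p = 0.148).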

How the data were processed

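Total RNA of the 7 libraries was sequenced in bulk. The authors deposited raw gene counts and a log2 table of normalized CPM. Trim Galore 0.6.0, STAR 2.7.8, DESeq2 and the mm10 build are named in the submitters' processing notes, and how reads were counted is not stated in the labels. The log2 CPM recomputed here with TMM scaling and a prior count of 2 matched the deposited log2 values to within 5.0e-09. Counts were tested with edgeR 4.0.16 in R 4.3.3 (quasi-likelihood fit, genotype as the only term, filterByExpr, which removed 0 genes), with Benjamini-Hochberg adjustment over all 16156 genes at 0.05. DESeq2 1.42.0 and limma 3.58.1 (voom) were alternatives, as were other scalings, filters, a replicate block and leaving out libraries. The code was tested on simulated data. CPM in the text is TMM-scaled. Coding lengths, gene types and exon overlaps came from GENCODE (16136 identifiers matched), and start windows from RefSeq. The members and lists were chosen with earlier results of these data known. Genes were named by rule: the 8 most abundant members, the 6 largest differences in each direction, the 8 smallest p, the stalk, paralog and outside-the-rule genes, and the 2 smallest p of each related list. Some genes are not reported here. Counting intervals are narrow at this depth and cover counting error only.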

Additional observations from a re-analysis of the deposited data

Results flagged for a closer look

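In 7 of 55 gene and ratio groups tested, 1 WT library stood far from the other 3 by Dixon's ratio, its gap to the nearest library divided by the range of the 4; chance passes the limit used in about 5% of groups. WT 3 was low for Rpl41 (ratio 0.926) and Rpl23a (0.833). WT 4 was high for Rplp0 (0.890), Rps9 (0.886), Rps4l (0.842) and the ratio of Rps27l to Rps27 (0.851), and low for the ratio of Rpl39l to Rpl39 (0.967), in which its Rpl39l count is 0. WT 4 is also the library with the lowest OT-I receptor share among the WT libraries (84.5%) and the highest cell cycle sum (5148 CPM). The part of these in the values above was not tested.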

How the results depend on the processing

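The main limits are the 3 KO and 4 WT libraries, the cells without the OT-I receptor in the KO libraries, and repeated sequence among ribosomal protein genes. EdgeR called 0 genes with all libraries; DESeq2 called 1552, limma voom 1132, the bias-adjusted fit 573 and the fit without both KO 1 and WT 4 1532, and leaving out 1 library gave 0 to 189. Members called higher were 0 with edgeR and all libraries, 1 with DESeq2, 1 with limma voom, 1 with the bias-adjusted fit, 3 without both KO 1 and WT 4 (Rpl14, Rps2 and Rps4l) and 0 to 1 when 1 library was left out (Rps4l, without KO 3 or without WT 4). Members called lower were 4 with DESeq2 and 1 with limma voom, and 0 in all other settings.

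The KO minus WT difference in the log2 ratio of Rps4l to Rps4x, 2.94 in all libraries, was 2.74 to 3.20 when 1 library was left out and 2.92 without both KO 1 and WT 4, where fewer splits allow no p under 0.05. The labels do not say whether replicate numbers pair the libraries. The deviations of same-numbered libraries had correlations of -0.18, -0.04 and 0.24, and those of differently numbered ones -0.22 to 0.18. These values do not settle whether the libraries were paired. With the replicate block edgeR called 0 genes, and the difference for Rps4l to Rps4x was 3.12 (exact permutation p = 0.25, the smallest 3 pairs allow). The difference for Rpl39l to Rpl39 ran from -2.41 (without both KO 1 and WT 4) to 0.69 (without KO 2).

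Signs changed where differences were near 0. For Rps4x the log2 difference was 0.0042 with median-of-ratios scaling and with DESeq2, 0.040 with upper-quartile scaling, 0.078 with library totals, 0.11 with limma voom and 0.033 with the replicate block. Rpsa gave 0.034 with limma voom and 0.0052 with the block. Leaving out 1 library, or both KO 1 and WT 4, gave -0.15 to 0.14 for Rps4x, -0.33 to 0.13 for Rpsa, -0.087 to 0.23 for Rack1, -0.11 to 0.25 for Rpl4, -0.25 to 0.014 for Rpl7, -0.091 to 0.29 for Rplp0 and -0.017 to 0.33 for Rplp2. The cause was not tested. The median log2 difference of the members and the gap between short and long members kept their sign in every setting, and the difference in share of counts stayed below the KO SD of 0.355 percentage points.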
